A study of Mus musculus with 8 samples.

Results

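The synaptic vesicle and release machinery is described here through 38 genes chosen by name: synapsins, other vesicle proteins, synaptotagmins, SNARE proteins and their partners, active zone proteins, endocytic proteins and the vesicular glutamate transporters. Members were the entries of the deposited table whose symbol matched a name exactly, which gave 37 of the 38 among 24078 entries. The remaining gene, Rims1, was listed only as 2 entries with an added suffix and was not analysed here. What the suffix means is not stated in the sources used. The study took hippocampus from 4 wild-type mice (replicates 7, 8, 9 and 10) and 4 mice homozygous for the targeted allele Wfs1tm1Koks (replicates 15, 16, 17 and 18), and sequenced total RNA after removal of ribosomal RNA, with 1 library per animal. Both genotypes carry that strain name in the labels, no treatment is named, while age, sex and litter do not appear in the labels. Wfs1 encodes wolframin, a membrane protein of the endoplasmic reticulum (ER), and the comparison of homozygous with wild-type hippocampus asks which transcripts differ when it is disrupted.

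Neurotransmitter is stored in synaptic vesicles that are filled by transporters, tethered by synapsins, docked at the active zone by RIM, Munc13, Bassoon and Piccolo, and fused with the membrane by the SNARE proteins synaptobrevin, syntaxin and SNAP-25. Synaptotagmins sense the calcium that triggers fusion, complexins hold the assembled SNAREs ready, and NSF with its SNAP adaptors takes the complex apart afterwards. Dynamin, amphiphysin, synaptojanin and the clathrin adaptor AP180 then recover the membrane. In hippocampus most of these transcripts come from glutamatergic pyramidal and granule neurons, and a smaller part from interneurons.

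Library totals ran from 3250949 to 6747411 counts, and levels are given below as counts per 1000000 of the TMM-scaled library (CPM). Wfs1, the check on the labels, averaged 52.0 ± 7.49 CPM in wild-type and 14.8 ± 2.61 CPM in homozygous hippocampus (SD over 4 libraries; log2 fold change -1.81 with SE 0.16), with no overlap between genotypes. All 37 members passed the filter on low counts, and none was counted fewer than 38 times in any library. Pan-neuronal markers were detected in both genotypes. Of 13 listed, 12 were measured (Map2 was not analysed here). They summed to 2416 to 3036 CPM in wild-type and 1704 to 2004 CPM in homozygous libraries. The choroid plexus marker Ttr ranged from 89.8 to 1018 CPM among wild-type and from 18.5 to 723 CPM among homozygous libraries.

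Most of the release machinery was lower in homozygous hippocampus. In edgeR's quasi-likelihood test, with calls at an adjusted p under 0.05, 25 of the 37 members fell, 4 rose and 8 were called in neither direction. Over all 20478 genes tested, 20.4% were called lower and 20.7% higher. The median log2 fold change of the members was -0.55, against 0.05 for all genes tested. The 4 homozygous values lay wholly below the 4 wild-type values for 26 members and wholly above for 3, where 18.8% of all genes lay in each class. Per library, the median member stood at -0.66, -0.52, -0.51 and -0.47 (log2 relative to the wild-type mean) in homozygous replicates 15, 16, 17 and 18, while the 4 wild-type libraries stood between -0.10 and 0.08. All genes stood between 0.02 and 0.03 in the homozygous libraries on the same scale.

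**Figure D1:**
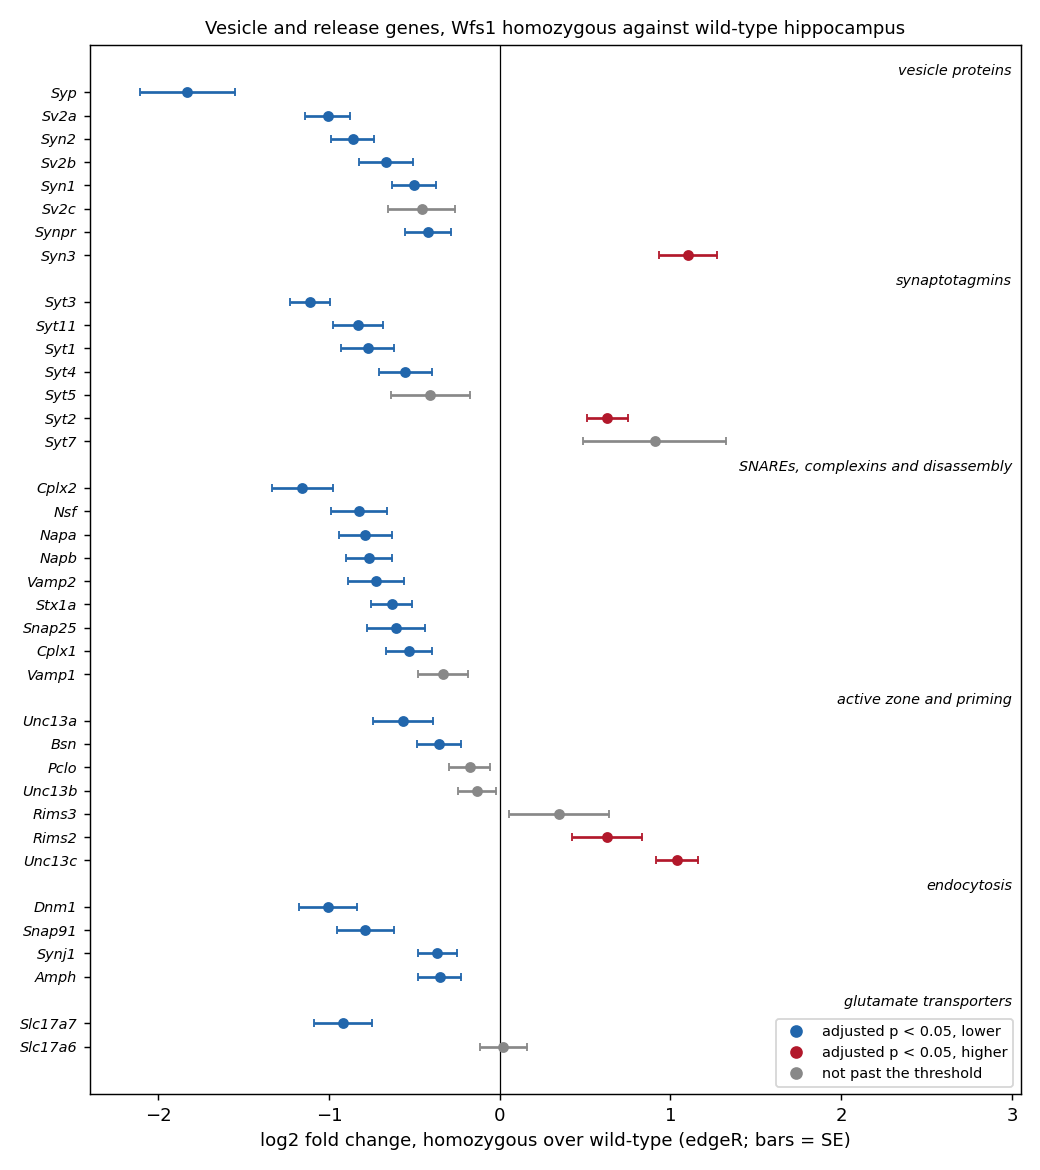
Log2 fold change of homozygous over wild-type for each of the 37 genes (horizontal axis; bars are the SE of the edgeR fit, 4 libraries per genotype), grouped by role. Of these, 25 lie below 0 and pass an adjusted p of 0.05, and Syn3, Syt2, Unc13c and Rims2 lie above 0 and pass.

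These members are abundant transcripts, and fold changes in this comparison followed abundance over the whole table. Of the 37 members 24 belonged to the highest of 10 equal classes of mean CPM, and 20 of these fell and 2 rose. In that class as a whole 55.1% of 2048 genes were lower and 12.6% higher, and the median log2 fold change was -0.46, while the 24 members had a median of -0.69. Of the 9 members outside the upper 2 of the 10 classes, 2 fell and 1 rose, beside 20.4% and 20.7% of all genes tested. With libraries scaled by their totals alone, 16 members were lower and 5 higher, beside 11.8% and 32.4% of all genes. When a smooth trend of each library on abundance was removed before the same test, 8 members were lower and 6 higher (all genes: 16.3% and 18%), with a median of -0.16. When the trend was taken on counts per kilobase of exon instead, 6 were lower and 5 higher (all genes: 15.2% and 17%), with a median of -0.09. Of the 25 members that fell, only Syp and Syt3 were called lower in both of these fits. All 4 that rose (Syn3, Syt2, Unc13c and Rims2) were called higher in both. Removing the abundance trend raises estimates in the upper 2 classes, whose medians are -0.21 and -0.46. It moved Syn3 from 1.10 to 1.48, Unc13c from 1.04 to 1.21 and Rims2 from 0.63 to 0.99. Their calls in that fit are therefore no separate support. Syt2, of a lower class, moved from 0.63 to 0.60. The part that abundance plays in the members' values was not tested further.

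**Figure D2:**
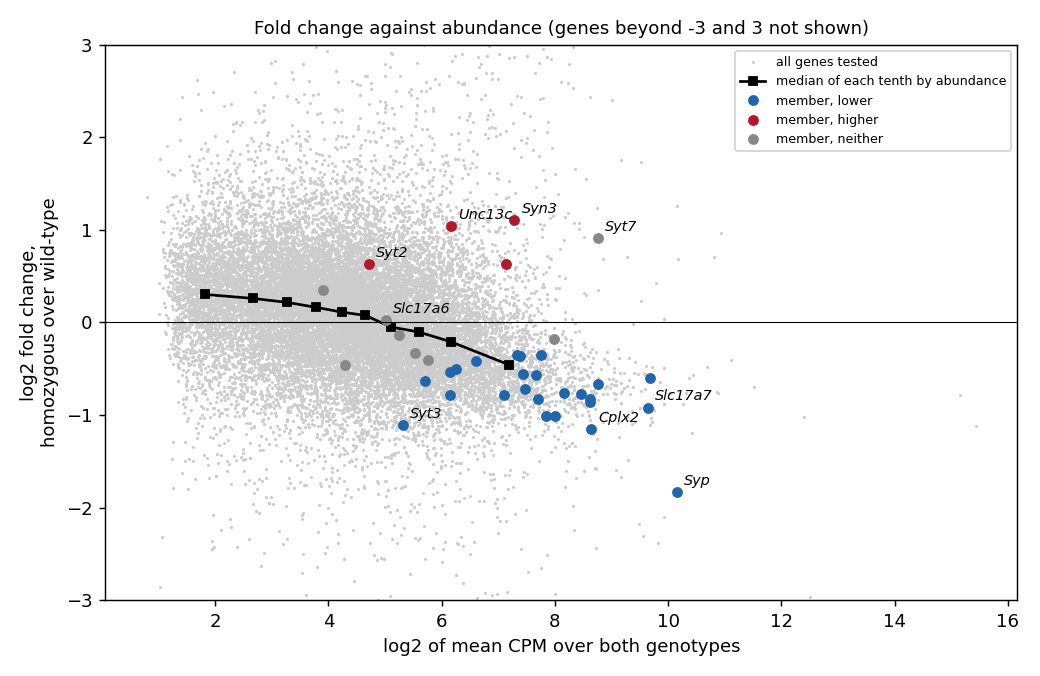
Log2 fold change of homozygous over wild-type (vertical axis) against log2 mean CPM (horizontal axis) for all genes tested (grey; genes beyond the axis limits are not drawn), with the median of each of 10 abundance classes (black squares) and the 37 members coloured by call. The class medians run from 0.30 at the low end to -0.46 at the high end; Syp lies below those medians at -1.83, and Syn3 and Unc13c lie above them at 1.10 and 1.04.

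Upstream sequences are shown for 4 members that moved in different directions, Syn1, Syn2 and Slc17a7 (lower) and Unc13c (higher), because members that move together raise the question of shared promoter letters. Sequences are from RefSeq on GRCm38.p6, 5′ to 3′ on the gene's strand, and cover the bases before the annotated start that lie outside the gene in GENCODE as well. Capitals mark 4 motifs searched on both strands: the cyclic AMP response element TGACGTCA, the GC box GGGCGG, the left part of the RE1 silencer element CAGCACC, and the TATA box TATAAA. Syn1 covers chrX:20921005-20921168 (minus strand), Syn2 chr6:115134652-115134901 (plus), Slc17a7 chr7:45163671-45163920 (plus) and Unc13c chr9:73969038-73969287 (minus).
Syn1: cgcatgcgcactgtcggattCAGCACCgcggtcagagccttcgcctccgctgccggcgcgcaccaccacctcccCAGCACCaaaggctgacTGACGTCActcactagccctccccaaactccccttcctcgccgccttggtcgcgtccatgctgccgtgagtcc
Syn2: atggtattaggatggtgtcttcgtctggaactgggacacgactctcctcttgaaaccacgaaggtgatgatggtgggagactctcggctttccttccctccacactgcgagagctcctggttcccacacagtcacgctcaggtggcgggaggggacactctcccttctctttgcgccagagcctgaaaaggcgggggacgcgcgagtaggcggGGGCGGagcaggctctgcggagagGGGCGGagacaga
Slc17a7: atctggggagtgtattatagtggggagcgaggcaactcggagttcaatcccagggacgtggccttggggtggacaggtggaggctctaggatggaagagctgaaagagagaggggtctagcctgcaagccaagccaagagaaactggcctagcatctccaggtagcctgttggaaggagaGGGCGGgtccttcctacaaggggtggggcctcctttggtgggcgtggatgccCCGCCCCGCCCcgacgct
Unc13c: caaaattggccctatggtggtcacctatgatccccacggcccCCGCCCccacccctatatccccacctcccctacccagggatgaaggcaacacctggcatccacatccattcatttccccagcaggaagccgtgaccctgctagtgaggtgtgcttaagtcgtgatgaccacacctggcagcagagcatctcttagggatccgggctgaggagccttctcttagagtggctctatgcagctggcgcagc
Syn1 held 1 cyclic AMP response element and 2 copies of the RE1 part, Syn2 held 2 GC boxes, Slc17a7 held 3, of which 2 share a base, and Unc13c held 1. Promoter entries were found for 30 of the 37 members. Within 250 bases before any of their starts, 21 of these 30 genes held a GC box, as did 35.4% of 27025 genes in the promoter table. The GC box stood upstream of 13 of the 22 members with entries that fell, 2 of the 2 that rose and 6 of the 6 that were called in neither direction. The cyclic AMP response element was found in Syn1 alone among them (1.77% of all genes), the RE1 part in Syn1, Napa and Sv2c (6.56% of all genes) and the TATA box in Sv2b alone (14.3% of all genes).

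Of the 8 vesicle protein genes 6 fell and 1 rose. Of all genes 20.4% were lower and 20.7% higher, and of the highest abundance class 55.1% and 12.6%. With the abundance trend removed 3 were lower (Syp, Sv2a and Sv2c), with the density trend removed 2 (Syp and Sv2c), and Syn3 was higher in both. Syp encodes synaptophysin, an abundant vesicle membrane protein. It gave 2105, 2715, 1219 and 1075 CPM in the wild-type libraries (in the order of replicates 7, 8, 9 and 10, as throughout). In the homozygous libraries it gave 473, 444, 544 and 541 CPM (replicates 15, 16, 17 and 18). The genotypes did not overlap, and the wild-type libraries differed among themselves by more than the homozygous ones. The means were 1778 ± 773 and 501 ± 50.2 CPM (SD over 4 libraries), with a log2 fold change of -1.83 (SE 0.28, adjusted p 0.000678 in edgeR), and leaving out any 1 library gave -2.01 to -1.57. It was still lower with the abundance trend removed (-1.05, adjusted p 0.0203 in edgeR). The gene lies on chromosome X, positions 7638471 to 7653256 of mm10, plus strand, and 875 bases of its exons overlap an antisense transcript, Gm14703, that was not analysed here.

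The synapsins, phosphoproteins that tie vesicles to each other and to actin, moved in opposite directions. Syn2 was at 498, 473, 531 and 532 CPM in the wild-type and 289, 281, 295 and 255 CPM in the homozygous libraries, with a log2 fold change of -0.86 (SE 0.13, adjusted p 0.000549 in edgeR). Syn1 averaged 90.0 ± 2.75 and 63.6 ± 9.52 CPM (-0.50, SE 0.13). Syn3 was at 97.9, 96.6, 95.5 and 106 CPM in wild-type and 164, 186, 287 and 215 CPM in homozygous libraries, every homozygous value being higher. Its log2 fold change was 1.10 (SE 0.17, adjusted p 0.000716 in edgeR), and it stayed between 0.92 and 1.21 when any 1 library was left out. Syn3 (chromosome 10, 86055125 to 86498896, minus strand) hosts Timp3, an inhibitor of matrix proteases, on the opposite strand, and their exons share 1733 bases. Timp3 itself was at 64.3 ± 7.83 and 57.6 ± 5.11 CPM (SD over 4 libraries), with overlapping groups (-0.15, adjusted p 0.351 in edgeR). Reads of the shared bases could have been assigned to either gene, since no source used here states whether counting used strand.

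Scaled by exon length, the make-up of the family differed between genotypes. Syn3 made up 7.50% ± 0.295 of synapsin CPM per kilobase of exon in wild-type libraries (range 7.08% to 7.72%) and 22.5% ± 3.57 in homozygous ones (18.2% to 26.5%; SD, n = 4 each). Syn2 went from 67.1% ± 1.18 to 52.3% ± 4.50, and Syn1 stood at 25.4% ± 0.933 and 25.2% ± 2.0. The summed level of the family was 107.7 ± 4.62 CPM per kilobase in wild-type libraries and 76.4 ± 7.93 in homozygous ones, without overlap. A share within a library does not depend on the library's scaling factor, but it does depend on a trend with abundance or density. With the abundance and density trends removed, Syn2 was at -0.24 and -0.18 and Syn1 at -0.30 and -0.06, none past the threshold. Syn3 was at 1.48 and 1.27 in those fits.

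**Figure D3:**
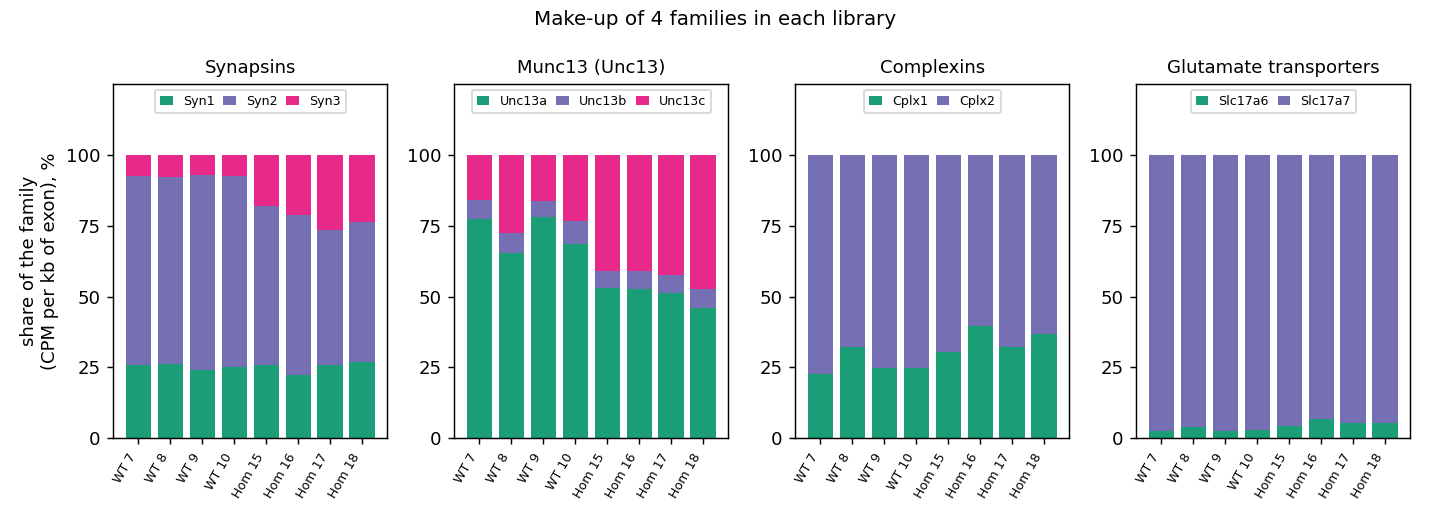
Share of each family's CPM per kilobase of exon (vertical axis, percent) contributed by each gene in each of the 8 libraries (horizontal axis; WT, wild-type, Hom, homozygous). Syn3 takes 7.08% to 7.72% of the synapsins in wild-type libraries and 18.2% to 26.5% in the homozygous ones, and Unc13c takes 16.1% to 27.7% and 41.0% to 47.3% of the Munc13 family.

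The SV2 glycoproteins, vesicle membrane proteins that resemble transporters, were lower for the 2 main genes of the family. Sv2a, the binding site of the antiepileptic drug levetiracetam, stood at 327, 298, 333 and 265 CPM in wild-type and 155, 169, 144 and 140.0 CPM in homozygous libraries (log2 fold change -1.01, SE 0.13, adjusted p 0.000296 in edgeR). Sv2b went from 534 ± 25.3 to 337 ± 61.6 CPM (-0.67, SE 0.16). With the abundance and density trends removed, Sv2b was at -0.03 and -0.008, neither past the threshold. Sv2a was at -0.51 and -0.35 in those fits, called lower only with the abundance trend removed. Sv2c, which is mostly a basal ganglia gene, was low at 22.8 ± 6.06 and 16.5 ± 1.85 CPM with overlapping groups and did not pass (-0.46, SE 0.20, adjusted p 0.0840 in edgeR), but it passed without wild-type replicate 7 (-0.61, adjusted p 0.0231) and in both trend-removed fits (-0.55 and -0.63 for abundance and density, adjusted p 0.0475 and 0.0257). Synpr, synaptoporin of mossy fibre terminals, fell from 111 ± 7.75 to 83.2 ± 12.4 CPM (-0.42, SE 0.13, adjusted p 0.0262 in edgeR). The call on Synpr was lost without wild-type replicate 7 (-0.42, adjusted p 0.0576) and without homozygous replicate 15 (-0.32, adjusted p 0.0725). It was also lost with the abundance trend (-0.15) or the density trend (-0.32) removed.

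**Figure D4:**
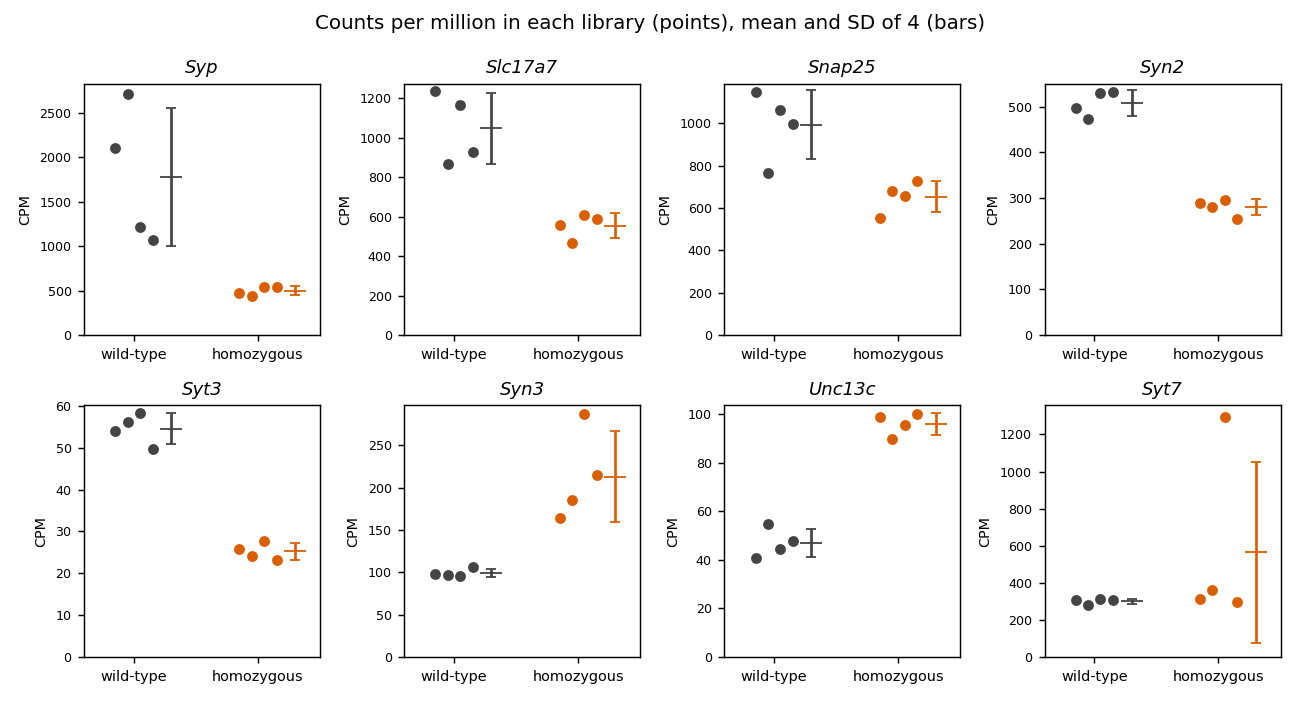
CPM of 8 members in each library (points; vertical axes start at 0) with the mean and SD of 4 libraries beside them, for wild-type (grey) and homozygous (orange). Syp, Slc17a7, Snap25, Syn2 and Syt3 are lower and Syn3 and Unc13c higher in all 4 homozygous libraries, while Syt7 is high at 1296 CPM in homozygous replicate 17 and between 294 and 359 CPM in the other homozygous libraries.

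Among the synaptotagmins 4 of 7 fell and 1 rose, where 20.4% of all genes were lower and 20.7% higher. The highest abundance class had 55.1% lower and 12.6% higher. With either trend removed Syt3 alone was lower and Syt2 and Syt7 were higher. Syt1, the fast calcium sensor of forebrain synapses, was at 480.2, 379, 513 and 405 CPM in wild-type and 232, 308, 238 and 263 CPM in homozygous libraries (log2 fold change -0.77, SE 0.15, adjusted p 0.00284 in edgeR). Syt2, its fast relative in brainstem and in some interneurons, went the other way, from 20.1, 21.02, 20.2 and 21.2 CPM to 33.2, 35.4, 30.4 and 28.8 CPM (0.63, SE 0.12, adjusted p 0.00237 in edgeR). The wild-type values of Syt2 lay close together and all homozygous values were above them. Per kilobase of exon Syt2 remained far below Syt1 in both genotypes, at 2.70 ± 0.0735 (wild-type) and 4.18 ± 0.388 (homozygous) CPM per kilobase, against 53.3 ± 7.52 and 31.2 ± 4.16 for Syt1 (SD over 4 libraries).

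Syt3, a high-affinity calcium sensor also found at postsynaptic membranes, had the smallest adjusted p of the 37 members. It was at 54.0, 56.3, 58.4 and 49.6 CPM in wild-type and 25.8, 24.1, 27.8 and 23.2 CPM in homozygous libraries (log2 fold change -1.11, SE 0.12, adjusted p 7.6e-05 in edgeR). With the abundance trend removed it was -1.06, and with the density trend removed -0.93. Syt3 is also one of the less abundant members that fell, at 17.5 CPM per kilobase of exon in wild-type, which placed it in position 25 of 37. Syt11, a synaptotagmin that does not bind calcium, fell from 505 ± 78.0 to 284 ± 13.7 CPM (-0.83, SE 0.15), and Syt4, of dense-core vesicles, from 206 ± 23.3 to 141 ± 25.8 CPM (-0.55, SE 0.15).

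Syt7, the slow calcium sensor of asynchronous release and vesicle replenishment, was at 304, 281, 311 and 307 CPM in wild-type and 309.6, 359, 1296 and 294 CPM in homozygous libraries. A single library, homozygous replicate 17, stood apart, and the rest of its group lay within 294 to 359 CPM. The log2 fold change was 0.91 (SE 0.42, adjusted p 0.102 in edgeR) with all libraries and 0.09 (adjusted p 0.646 in edgeR) without that one. With all libraries Syt7 was among the members called higher under library totals (1.10, adjusted p 0.0489 in edgeR) and in the fits without the abundance trend (1.52, adjusted p 0.0185) or the density trend (1.55, adjusted p 0.0158). Syt5 overlapped between genotypes, at 79.9, 31.5, 64.5 and 69.0 CPM and 41.5, 41.8, 51.5 and 51.7 CPM, and did not pass (-0.41, SE 0.23). Without wild-type replicate 8, the lowest of its group, it passed (-0.63, adjusted p 0.00631 in edgeR).

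**Figure D5:**
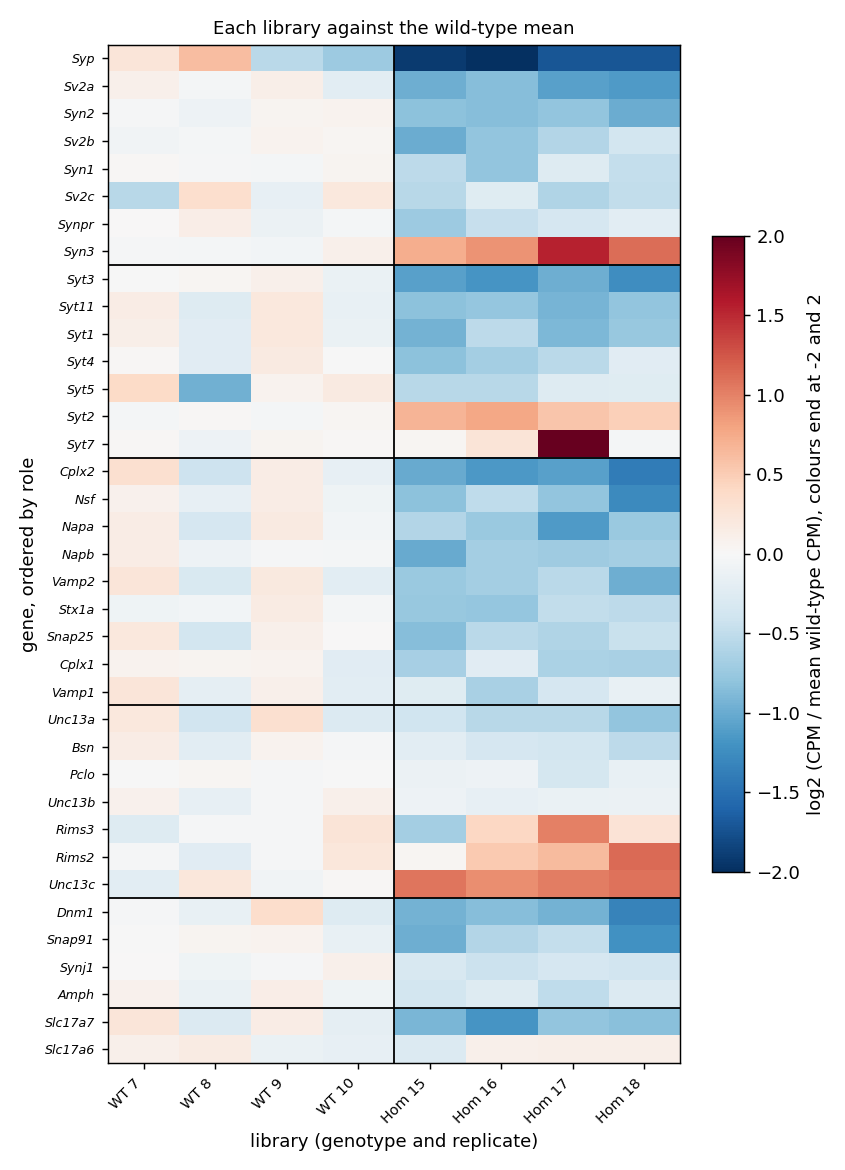
Log2 ratio of each library's CPM to the wild-type mean (colour, ending at -2 and 2) for the 37 genes (rows, by role) in the 8 libraries (columns; WT, wild-type, Hom, homozygous). Homozygous libraries are lower in most rows, Syn3, Syt2 and Unc13c are higher in all 4, and the single dark red cell is Syt7 in homozygous replicate 17.

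Of the 9 SNARE, complexin and disassembly genes 8 fell and none rose, with a median log2 fold change of -0.72, where 20.4% of all genes and 55.1% of the highest abundance class were lower. After removal of the abundance trend 3 of the 9 (Stx1a, Cplx2 and Napa) were lower (median -0.35), and with the density trend removed only Vamp1, which is not among the 8, was lower (median -0.25). Cplx2, the main complexin of hippocampal pyramidal neurons, was at 682, 412, 608 and 492 CPM in wild-type and 271, 247, 259 and 208 CPM in homozygous libraries (log2 fold change -1.15, SE 0.18, adjusted p 0.000698 in edgeR). Cplx1, enriched in inhibitory terminals, fell less, from 84.1 ± 7.95 to 58.2 ± 9.04 CPM (-0.53, SE 0.14), and its share of complexin CPM per kilobase was 26.1% ± 4.28 in wild-type and 34.7% ± 4.19 in homozygous libraries, with ranges of 22.5% to 32.3% and 30.5% to 39.6% that overlap. The summed complexin level went from 149.7 ± 25.8 to 76.6 ± 6.96 CPM per kilobase without overlap.

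Of the 4 SNARE genes 3 fell, beside 20.4% of all genes and 55.1% of the highest abundance class. Snap25, the plasma membrane SNARE with 2 SNARE motifs, stood at 1147, 767, 1065 and 998 CPM in wild-type and 553, 681, 655 and 728 CPM in homozygous libraries, with no overlap (log2 fold change -0.60, SE 0.17, adjusted p 0.0152 in edgeR), and without wild-type replicate 7 the call was lost (-0.53, adjusted p 0.0556). Its sign depended on the abundance correction: with the abundance trend removed it was 0.19 and with the density trend removed 0.23, neither past the threshold. Stx1a, syntaxin of the target membrane, fell from 63.3 ± 5.06 to 40.9 ± 4.26 CPM (-0.63, SE 0.12), and Vamp2, synaptobrevin of forebrain vesicles, from 222 ± 42.7 to 134 ± 16.8 CPM (-0.72, SE 0.16). Vamp1, the isoform of spinal cord and brainstem, was at 61.1, 45.8, 55.2 and 44.8 CPM and 43.8, 33.1, 41.1 and 46.7 CPM, with overlap, and did not pass (-0.33, SE 0.15, adjusted p 0.0906 in edgeR), though in the fit without the density trend it did (-0.49, adjusted p 0.0308). Vamp2 supplied 91.9% ± 0.49 of the pair per kilobase in wild-type and 89.6% ± 2.31 in homozygous libraries.

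The 3 genes for taking SNARE complexes apart all fell, where 20.4% of all genes and 55.1% of the highest abundance class were lower. Nsf and Napb belong to that class, and Napa to the one below it. Nsf, the ATPase, was -0.82 (SE 0.17), its adaptor genes Napa (alpha-SNAP) -0.79 (SE 0.16) and Napb (beta-SNAP, the brain form) -0.77 (SE 0.13), with adjusted p of 0.00286, 0.0026 and 0.0014 in edgeR. Removing the abundance trend gave estimates of -0.35, -0.60 and -0.21, of which only that of Napa passed, and removing the density trend gave -0.36, -0.42 and -0.16, none past the threshold. Napb went from 361 ± 28.1 to 212 ± 22.5 CPM and supplied 68.3% ± 2.76 and 68.5% ± 5.13 of the adaptor level per kilobase in wild-type and homozygous libraries. The proportion of the adaptors differed by less than the spread between libraries.

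Of the 7 active zone and priming genes 2 fell and 2 rose, beside 20.4% and 20.7% of all genes. With the abundance trend removed none was lower and 3 were higher (all genes: 16.3% and 18%). With the density trend removed 1 was lower (Unc13b) and 2 were higher (all genes: 15.2% and 17%). Unc13a, the Munc13 isoform that primes vesicles at most glutamatergic synapses, was at 280.0, 184, 301 and 201 CPM in wild-type and 183, 165, 165 and 139 CPM in homozygous libraries. The highest homozygous value was just under the lowest wild-type value, and the log2 fold change was -0.57 (SE 0.18, adjusted p 0.0242 in edgeR). The call was lost when wild-type replicate 7 (-0.49), wild-type replicate 9 (-0.45) or homozygous replicate 18 (-0.51) was left out. Exons of Unc13a share 495 bases with Colgalt1 on the opposite strand. Unc13c, the isoform best known from cerebellar granule cells, stood at 40.7, 54.6, 44.4 and 47.8 CPM in wild-type and 98.9, 89.7, 95.4 and 99.8 CPM in homozygous libraries (1.04, SE 0.12, adjusted p 0.000155 in edgeR). Every homozygous value was well above every wild-type value, and the estimate ran from 0.97 to 1.10 with any 1 library left out. The gene lies on chromosome 9, positions 73479422 to 73968966 of mm10, minus strand. Unc13b did not pass (40.0 ± 3.34 and 36.5 ± 0.577 CPM, -0.13, SE 0.11), but in the fit without the density trend it was called lower (-0.33, adjusted p 0.0464 in edgeR).

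The sum of the 3 Munc13 genes was 26.2 ± 4.05 CPM per kilobase of exon in wild-type and 25.4 ± 1.44 in homozygous libraries, a difference smaller than the spread between libraries, but its parts differed. Unc13a supplied 72.3% ± 6.35 in wild-type and 50.7% ± 3.23 in homozygous libraries, and Unc13c 20.9% ± 5.62 and 43.0% ± 2.95. In neither case did the ranges of the genotypes overlap.

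The large scaffolds had small estimates. Bsn, Bassoon, averaged 181 ± 18.7 and 142 ± 12 CPM (-0.35, SE 0.13, adjusted p 0.0436 in edgeR), and this call was lost in 6 of the 8 fits that left out 1 library, all but those without wild-type replicate 8 or homozygous replicate 15. Pclo, Piccolo, was at 267, 277, 264 and 267 CPM in wild-type and 247, 252, 210.2 and 242 CPM in homozygous libraries, all lower, but did not pass (-0.18, SE 0.12, adjusted p 0.260 in edgeR). It turned to 0.35 (adjusted p 0.0482 in edgeR) with the abundance trend removed. Rims2, a RIM scaffold that recruits calcium channels, was at 108, 94.3, 108 and 129 CPM in wild-type and 113, 157, 171 and 240.1 CPM in homozygous libraries (0.63, SE 0.20, adjusted p 0.0290 in edgeR). Homozygous replicate 15 lay inside the wild-type range. Without homozygous replicate 18, the highest, it was 0.41 (adjusted p 0.0779 in edgeR), and the call was also lost without wild-type replicate 7 (0.62), 8 (0.55) or 9 (0.62). Rims3, the least abundant member per kilobase in wild-type libraries, did not pass (13.1 ± 1.91 and 16.9 ± 7.46 CPM, 0.35, SE 0.29).

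All 4 endocytosis genes fell, and all 4 belong to the highest abundance class, of which 55.1% was lower. With library totals alone Dnm1 and Snap91 were lower, with the abundance trend removed only Dnm1 (-0.48), and with the density trend removed only Snap91 (-0.52). Dnm1, the neuronal dynamin that cuts vesicles from the membrane, was at 337, 308, 435 and 286 CPM in wild-type and 178, 189.9, 177 and 135 CPM in homozygous libraries (log2 fold change -1.01, SE 0.17, adjusted p 0.00109 in edgeR). Snap91, which encodes the clathrin adaptor AP180, went from 174 ± 11.7 to 101 ± 23.3 CPM (-0.79, SE 0.17). Synj1, the phosphatase synaptojanin that strips the clathrin coat, and Amph, amphiphysin, fell less, with -0.36 (SE 0.11, adjusted p 0.0230 in edgeR) and -0.35 (SE 0.13, adjusted p 0.0427 in edgeR). Amph was at 256, 221, 265 and 229 CPM in wild-type and 189, 202, 171 and 199.9 CPM in homozygous libraries. The calls on Amph and Synj1 were lost in 5 and 3 of the 8 fits that left out 1 library, in both cases without wild-type replicates 7, 9 or 10, and for Amph also without homozygous replicates 15 or 17. With the abundance trend removed both changed sign (0.14 and 0.06, not past the threshold).

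The glutamate transporters that load vesicles separated. Slc17a7 (VGLUT1), the form of hippocampal pyramidal and granule cells, was at 1236, 867, 1168 and 926 CPM in wild-type and 559, 465, 609.5 and 586 CPM in homozygous libraries (log2 fold change -0.92, SE 0.17, adjusted p 0.00193 in edgeR). Slc17a6 (VGLUT2), the form of thalamic and other subcortical inputs, was at 34.5, 35.9, 29.4 and 28.6 CPM and at 26.5, 34.3, 35.0 and 34.6 CPM, with overlapping groups (0.02, SE 0.14, adjusted p 0.913 in edgeR). Slc17a6 supplied 3.03% ± 0.67 of the pair per kilobase in wild-type and 5.59% ± 0.96 in homozygous libraries, the ranges being 2.45% to 3.98% and 4.52% to 6.85%. With the trends removed Slc17a7 no longer passed (-0.13 and -0.07).

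Ordered by wild-type level per kilobase of exon, the leading members were Syp (341 ± 148 CPM per kilobase), Slc17a7 (195 ± 33.4), Snap25 (146 ± 24.0), Cplx2 (111 ± 24.3) and Syt11 (97.0 ± 15; SD over 4 libraries). Syp and Slc17a7 differed by less than the SD of Syp, and Cplx2 and Syt11 by less than the SD of either, while Slc17a7 from Snap25 and Snap25 from Cplx2 differed by more. In homozygous libraries Slc17a7 (102.9 ± 11.7), Snap25 (96.3 ± 10.9) and Syp (96.1 ± 9.63) stood level within their spread. At the low end of the wild-type order were Syt2 (2.70), Sv2c (2.35), Unc13b (1.76) and Rims3 (1.64 CPM per kilobase). The 4 members that rose took positions 29 (Rims2), 30 (Syn3), 32 (Unc13c) and 34 (Syt2) of 37.

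A wider list held 110 other presynaptic genes. Of the 109 that were tested 46 fell and 12 rose, beside 20.4% and 20.7% of all genes. No call was made for 51, and the median log2 fold change was -0.31. With the abundance trend removed 26 were lower and 16 higher, beside 16.3% and 18% of all genes. With the density trend removed the counts were 22 and 11 (all genes: 15.2% and 17%). With library totals alone they were 32 and 20 (all genes: 11.8% and 32.4%). Endocytosis and clathrin genes had 14 of 25 lower and 1 higher, and other vesicle proteins 12 of 20 lower and 1 higher. Active zone scaffolds had 9 of 18 lower and 1 higher, and docking and SNARE regulators 8 of 24 lower and 2 higher. In the highest abundance class as a whole 55.1% of genes were lower and 12.6% higher. Genes with the smallest p among those that fell were Syngr3 (synaptogyrin; 51.0 ± 1.53 to 23.7 ± 3.24 CPM, log2 fold change -1.10), Ap2m1 (clathrin adaptor AP2; -1.13), Dnajc5 (the vesicle chaperone CSP-alpha; -1.04), Syngr1 (-0.88), Ap2a1 (-0.83) and Rab5c (-0.91). Of 15 other synaptotagmins and synaptotagmin-like proteins 2 were lower and 3 higher, no larger a share than the 20.4% and 20.7% of all genes. The 3 were Sytl3 (1.45, SE 0.25), Syt15 (0.81, SE 0.15) and Sytl4 (0.68, SE 0.19).

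Of 7 other vesicular transporters 4 were higher and 1 lower, beside 20.7% and 20.4% of all genes. Slc17a8 (VGLUT3), carried by a class of interneurons and serotonin fibres, was at 24.9, 23.1, 24.2 and 25.5 CPM in wild-type and 39.2, 35.7, 41.9 and 41.4 CPM in homozygous libraries (log2 fold change 0.69, SE 0.11, adjusted p 0.000982 in edgeR). Slc17a9, the vesicular nucleotide transporter, rose from 11.2 ± 1.31 to 18.5 ± 2.17 CPM (0.73, SE 0.16). Outside the transporters, Rph3a, rabphilin, a Rab effector on vesicles, rose from 99.4 ± 11.2 to 153 ± 20.1 CPM (0.62, SE 0.14).

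Markers of several cell classes, glia included, had lower calls beside the release genes, where 20.4% of all genes and 55.1% of the highest abundance class were lower. Of 12 pan-neuronal markers 9 fell and 1 rose, of 10 GABAergic markers 6 fell and none rose, and of 9 excitatory hippocampal markers 4 fell and 1 rose. Glial lists fell too, 7 of 8 oligodendrocyte markers (sums of 1433 to 2288 CPM in wild-type and 970.4 to 1198 CPM in homozygous libraries) and 5 of 8 astrocyte markers (3336 to 4165 and 2318 to 2491 CPM). Microglial markers fell in 3 of 9 with overlapping sums (272 to 359 and 272 to 335 CPM), endothelial markers fell in 2 of 8 and rose in 2, and of 5 oligodendrocyte precursor markers 2 fell and 1 rose. Of 7 choroid plexus markers 1 fell and 1 rose, thalamic and striatal lists had 0 lower and 1 of 5 and 2 of 7 higher, and 7 genes of muscle, liver and skin gave no call in either direction. No marker was at 0 over all libraries. The most abundant marker of each list was Thy1 (log2 fold change -0.95), Camk2a (-0.60, not past without wild-type replicate 7 or 9, at -0.52 and -0.54), Gad2 (-0.54), Slc1a2 (-0.75), Mbp (-0.69), Cspg4 (2.53 with overlapping groups, 1.38 without homozygous replicate 16, and an adjusted p of 0.0757 in edgeR with robust dispersion), Csf1r (0.44, not past the threshold, but 0.61 with an adjusted p of 0.0438 in edgeR without homozygous replicate 18), Slco1a4 (-0.02, not past), Ttr (-0.44, not past), Plekhg1 (0.20, not past), Rgs9 (-0.45, not past, and 0.024 without wild-type replicate 8) and Myh1 (0.14, not past). Thy1 (-0.33 and -0.12), Gad2 (-0.18 and -0.10), Camk2a, Slc1a2 and Mbp were no longer called with the abundance or the density trend removed. These genes all belong to the highest abundance class, and the marker lists as wholes were not counted in those fits. The part that these cell classes play in the values of the release genes was not tested, and in bulk tissue fewer cells of a type and less RNA per cell cannot be told apart.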

How the data were processed

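RNA of 8 hippocampi, 4 per genotype, was sequenced as pooled, barcoded libraries on a SOLiD 4 instrument (50 bp forward and 35 bp reverse reads, per the labels). The deposited values are unnormalized counts by gene symbol, and the submitters' processing notes name build mm10. How reads were aligned and counted, with which strand setting and annotation, is not stated in the labels or file header. Genotypes share no replicate number, and the labels do not name a batch. Replicates are separate animals.

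Counts were filtered with filterByExpr (20478 of 24078 entries kept), scaled with TMM and tested with edgeR 4.0.16 in R 4.3.3 (quasi-likelihood, two-sided, no covariate), with Benjamini-Hochberg adjustment over all genes and calls at 0.05. SE is the log2 fold change divided by the root of the F statistic. Exon lengths were the union of the exons of all transcripts of a gene in GENCODE M21 (97.6% of entries matched). Levels, positions and shares per kilobase rest on these lengths. Trends were removed as loess offsets (span 0.3) of each library on mean log2 CPM, or on that per kilobase of exon. Further alternatives were relative log expression size factors, library totals alone, no filter, 1 CPM in 4 libraries, robust dispersion, DESeq2 1.42.0, limma-voom with sample quality weights (limma 3.58.1) and leaving out each library. Of these fits only the main edgeR one was tested on simulated counts.

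The members and all lists were chosen with earlier results of these data known, so no p is given for a list. Every member is named by role, with all values for the extremes of each role. Of other presynaptic genes up to 6 per direction are named by smallest p, and of each marker list the most abundant gene; a few further genes (such as Timp3) were added after their values were seen.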

Additional observations from a re-analysis of the deposited data

Results flagged for a closer look

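In 63 genes named here, each genotype's 4 libraries were searched for 1 library far from the other three, and 9 of 126 groups had one, 5 of them in members; chance gives about 1 in 20. Syt7 was at 1296 CPM in homozygous replicate 17, with the others at 294 to 359 CPM. Cplx1 was at 72.2 CPM in wild-type replicate 10 (others 87.5 to 88.6 CPM) and at 71.7 CPM in homozygous replicate 16 (others 53.0 to 54.4 CPM). Napb was at 178.9 CPM in homozygous replicate 15 (others 219.8 to 226 CPM), and Slc17a6 at 26.5 CPM in the same library (others 34.3 to 35.0 CPM). Outside the members, Syngr1 was at 174.4 CPM and Thy1 at 371.6 CPM in homozygous replicate 17, Rgs9 at 177.3 CPM in wild-type replicate 8 and Myh1 at 15 CPM in wild-type replicate 7.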

How the results depend on the processing

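No paired analysis was possible because the genotypes share no replicate number. With relative log expression size factors, no filter, 1 CPM in 4 libraries, robust dispersion and DESeq2, all 29 called members kept their call, and with limma-voom 28 did. Of the 29, 22 kept it in all 8 fits that left out 1 library, where members lower ran from 20 to 26, members higher from 3 to 4 and the members' median from -0.64 to -0.49. Other presynaptic genes lower ran from 39 to 49 and higher from 7 (without wild-type replicate 9) to 13. Only Syn3, Syp, Syt2, Syt3 and Unc13c kept their call under every alternative run.

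With library totals alone, 16 members and 2412 genes were lower, 6645 genes (against 4241) and 20 other presynaptic genes were higher, the members' median was -0.36, and the median of all genes moved to 0.25. Unc13b (0.065), Pclo (0.0265), Timp3 (0.052) and Slco1a4 (0.18) changed sign. With the abundance trend removed, 8 members and 26 other presynaptic genes were lower and the members' median was -0.16. Sign changed for Snap25 (0.19), Bsn (0.064), Pclo (0.35), Amph (0.14), Synj1 (0.057), Ttr (0.0058), Camk2a (0.20), Slc1a2 (0.22), Mbp (0.056) and Slco1a4 (0.033). With the density trend removed, 6 members and 22 other presynaptic genes were lower and the median was -0.086. Sign changed for Syt4 (0.079), Syt5 (0.0355), Snap25 (0.23), Cplx1 (0.0203), Amph (0.31), Synj1 (0.043), Slc17a6 (-0.086), Ttr (0.39), Camk2a (0.22), Slc1a2 (0.10), Mbp (0.067) and Myh1 (-0.034). Slc17a6 was -0.0087 in DESeq2, -0.0225 in limma-voom and between -0.038 and 0.12 with 1 library left out; Slco1a4 was 0.0235 in limma-voom and between -0.091 and 0.066, Ttr between -1.11 and 0.27 and Rgs9 between -0.61 and 0.024 with 1 library left out. The cause was not tested.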
